A study of Mus musculus with 6 samples.

Results

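The globin genes encode the protein chains of hemoglobin. All rows of the deposited expression table whose gene symbol starts with *Hba-* or *Hbb-* were taken, which gave 7 rows of 24207, of which 6 had a mean of at least 1 FPKM. FPKM counts the sequenced fragments of a row per kilobase of its transcript, scaled to the size of the library, so levels of different genes can be compared. The members were chosen by symbol alone, at a time when it was known that globin rows differed between the genotypes. Their differences are therefore given as a description.

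The samples were 6 male mouse embryos collected at E9.5, 3 wildtype (*Smchd1*+/+) and 3 homozygous for the MommeD1 allele (*Smchd1*MommeD1/MommeD1). MommeD1 is a nonsense mutation of *Smchd1*, a gene needed to complete X inactivation, that came from a chemical mutagenesis screen. Embryos of both genotypes came from matings of heterozygous parents, and the yolk sac of each embryo was used for genotyping. The labels name the background C57Bl6/J x FVB/n, whereas the study's text describes a backcross to a different strain for the embryos sequenced at this stage. The RNA came from embryos, with no sorting of blood cells described. In such bulk RNA, a different number of red cells and a different amount of globin RNA per red cell cannot be told apart. Each genotype has a single FPKM value for a row, pooled by the authors over its embryos. Neither a spread between embryos nor the depth of a library can be read from these values, and no test of the genotypes was made here.

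The first red cells of the mouse arise in the blood islands of the yolk sac and enter the circulation of the embryo around this stage. These primitive red cells carry hemoglobins built from embryonic chains, zeta from *Hba-x* and epsilon-y and beta-h1 from *Hbb-y* and *Hbb-bh1*, together with adult alpha chains from *Hba-a1* and *Hba-a2*. Within primitive red cells the balance moves, as they mature, from *Hba-x* towards the adult alpha genes and from *Hbb-bh1* towards *Hbb-y*. Red cells made later by the fetal liver use adult alpha and adult beta chains. Alpha-like and beta-like chains pair in equal numbers.

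The alpha-like genes lie on chromosome 11 and the beta-like genes on chromosome 7 of MM10, and each GENCODE M21 transcript examined has 3 exons. To show how far reads of the members can be told apart, the first 60 bases of the coding sequence are given 5′ to 3′ from the GENCODE M21 transcripts, with the start codon in capitals.
Hba-x: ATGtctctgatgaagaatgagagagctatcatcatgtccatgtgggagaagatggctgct
Hba-a1: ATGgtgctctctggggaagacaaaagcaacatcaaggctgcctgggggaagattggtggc
Hbb-y: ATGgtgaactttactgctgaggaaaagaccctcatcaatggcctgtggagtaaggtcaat
Hbb-bh1: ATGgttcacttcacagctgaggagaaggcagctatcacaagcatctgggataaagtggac
Hbb-bs: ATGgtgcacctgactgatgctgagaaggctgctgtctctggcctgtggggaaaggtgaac

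The coding sequence has 429 bases in the alpha-like genes *Hba-x*, *Hba-a1* and *Hba-a2* and 444 bases in the beta-like genes. *Hba-x* and *Hba-a1* shared 64.9% of aligned coding positions, and *Hbb-y* and *Hbb-bh1* shared 76.4%. No stretch of 100 bases, the length of the sequenced reads, occurred in both *Hba-x* and *Hba-a1*, or in any pair of *Hbb-y*, *Hbb-bh1* and the adult beta gene *Hbb-bs*. The adult alpha copies are different in this respect. The coding sequences of *Hba-a1* and *Hba-a2* differed at 1 of 429 positions, C381T counted from the first base of the start codon, which leaves the amino acid the same. The stretch from position 361 to 401 around that base, which is in capitals, shows how alike the copies are.
Hba-a1: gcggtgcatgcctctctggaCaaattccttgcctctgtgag
Hba-a2: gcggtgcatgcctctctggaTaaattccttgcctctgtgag

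Of the 600 windows of 100 bases in the *Hba-a1* transcript, 339 (56.5%) also occurred in the *Hba-a2* transcript. In the other direction it was 339 of 455 windows (74.5%). The coding sequence starts at base 197 of the annotated *Hba-a1* transcript and at base 36 of that of *Hba-a2*. Part of the unshared windows thus comes from this longer annotated start, and 56.5% understates how alike the copies are. The authors' table lists both symbols at each of both loci, and the split of reads between the loci is uncertain. The adult beta genes of the reference genome, *Hbb-bs* and *Hbb-bt*, likewise differed at 1 coding position, and 331 of 529 windows (62.6%) of *Hbb-bs* occurred in *Hbb-bt*.

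*Smchd1*, the mutated gene, had a level of 2.12 FPKM in mutant embryos against 34.0 FPKM in *Smchd1*+/+ embryos, 15.4-fold lower in the genotype labelled mutant. Over the 12463 rows whose mean reached 1 FPKM, the median log2 ratio of mutant over wildtype was -0.0076. All log2 ratios were computed with 0.1 FPKM added to each value.

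*Hba-x*, the embryonic alpha-like gene, lies on chromosome 11 from 32276600 to 32278115. Its level was 4602 FPKM in *Smchd1*MommeD1/MommeD1 embryos against 2274 FPKM in *Smchd1*+/+ embryos. This is a 2.02-fold higher level in the mutant embryos, a log2 ratio of 1.02. Among 22855 rows with a symbol and a locus of at least 200 bp, *Hba-x* ranked 5 by FPKM in the mutant and 29 in the wildtype embryos.

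The adult alpha genes were also higher in the mutant embryos, by nearly the same factor at both copies. The row at *Hba-a1*, from 32283672 to 32284493, was at 2060 FPKM in mutant against 947.9 FPKM in wildtype embryos, a log2 ratio of 1.12. The row at *Hba-a2*, from 32296489 to 32297310, was at 1394 and 639.7 FPKM, also a log2 ratio of 1.12. The row at *Hba-a1* held 59.7% of the FPKM of both rows in each genotype. The rows share most of their sequence, so they do not count as separate observations.

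*Hbb-y*, which encodes the epsilon-y chain, had the largest ratio of the 7 rows. It lies on chromosome 7 from 103851754 to 103853207 and was at 4191 FPKM in *Smchd1*MommeD1/MommeD1 against 1787 FPKM in *Smchd1*+/+ embryos. This was a 2.34-fold higher level, a log2 ratio of 1.23. *Hbb-bh1*, which encodes the beta-h1 chain, lies from 103841638 to 103843162 and was at 3845 and 1918 FPKM. Its level was 2.004-fold higher in the mutant embryos, a log2 ratio of 1.003.

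The adult beta genes were measured at a far lower level than the embryonic ones. The row listed as *Hbb-b1*/*Hbb-b2* spans 103812524 to 103813923, which are the coordinates of *Hbb-bt* in RefSeq on GRCm38.p6. It was at 17.9 FPKM in mutant against 11.1 FPKM in wildtype embryos, a log2 ratio of 0.68. The row listed as *Beta-s* lies at the RefSeq position of *Hbb-bs*, from 103826523 to 103827928, and is not covered by the symbol rule. It was at 36.8 and 23.4 FPKM, a log2 ratio of 0.65, close to that of the *Hbb-b1*/*Hbb-b2* row. Since near-identical copies share reads, the split between these adult beta rows is uncertain as well. *Hbb-bh2* was at 0.087 FPKM in mutant against 0.086 FPKM in wildtype embryos, too low for a ratio to be read.

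**Figure D1:**
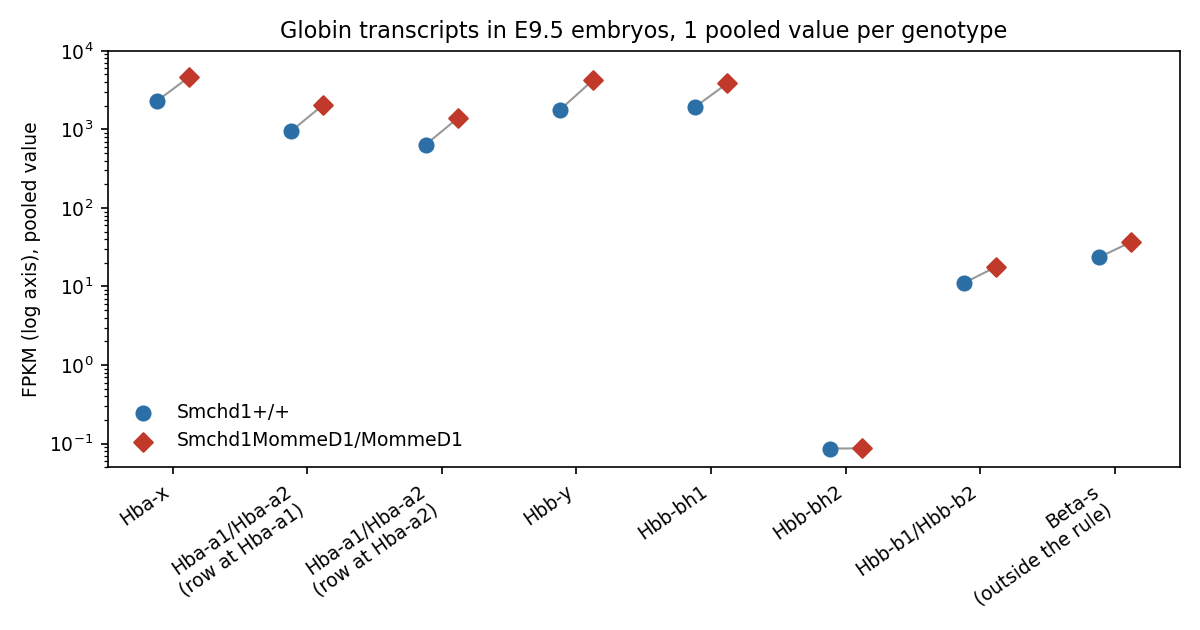
Pooled FPKM of each globin row (log axis) in *Smchd1*+/+ (blue circles) and *Smchd1*MommeD1/MommeD1 embryos (red diamonds), 1 value per genotype and no error bars because no value per embryo was used. *Hba-x*, the adult alpha rows, *Hbb-y* and *Hbb-bh1* lie between 639.7 and 4602 FPKM and are higher in the mutant embryos, the adult beta rows lie between 11.1 and 36.8 FPKM, and *Hbb-bh2* is at 0.087 and 0.086 FPKM.

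All 6 globin rows with a mean of at least 1 FPKM were at least 1.5-fold higher in the mutant embryos, and their median log2 ratio was 1.07. Of all 12463 rows at that level, 438 (3.51%) were at least 1.5-fold higher and 183 (1.47%) at least 1.5-fold lower. Of the 6, all but the *Hbb-b1*/*Hbb-b2* row were at least 2-fold higher, and over all rows 122 (0.979%) were that much higher and 64 (0.514%) that much lower. Of the 933 rows with a mean of at least 100 FPKM, where 5 of the globin rows lie, 23 (2.47%) were at least 1.5-fold higher and 21 (2.25%) at least 1.5-fold lower. As the globins were picked with this difference known, the count describes them and is no test. Both adult alpha rows are among the 6 and are not separate observations. With these rows counted once, the median log2 ratio would be that of *Hba-x*, 1.02. *Hbb-y* was exceeded in its ratio by 67 of the 12463 rows, *Hba-x* by 116, *Hbb-bh1* by 121 and the *Hbb-b1*/*Hbb-b2* row by 330. The globins combined such ratios with a high level. Of 103 rows with a symbol, a locus of at least 200 bp and a mean of at least 1000 FPKM, 5 were at least 1.5-fold higher in the mutant embryos, and these were *Hba-x*, both adult alpha rows, *Hbb-y* and *Hbb-bh1*. The other 98 had log2 ratios from -0.84 to 0.39, with a median of 0.02. That limit of 1000 FPKM was set after the values were seen.

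**Figure D2:**
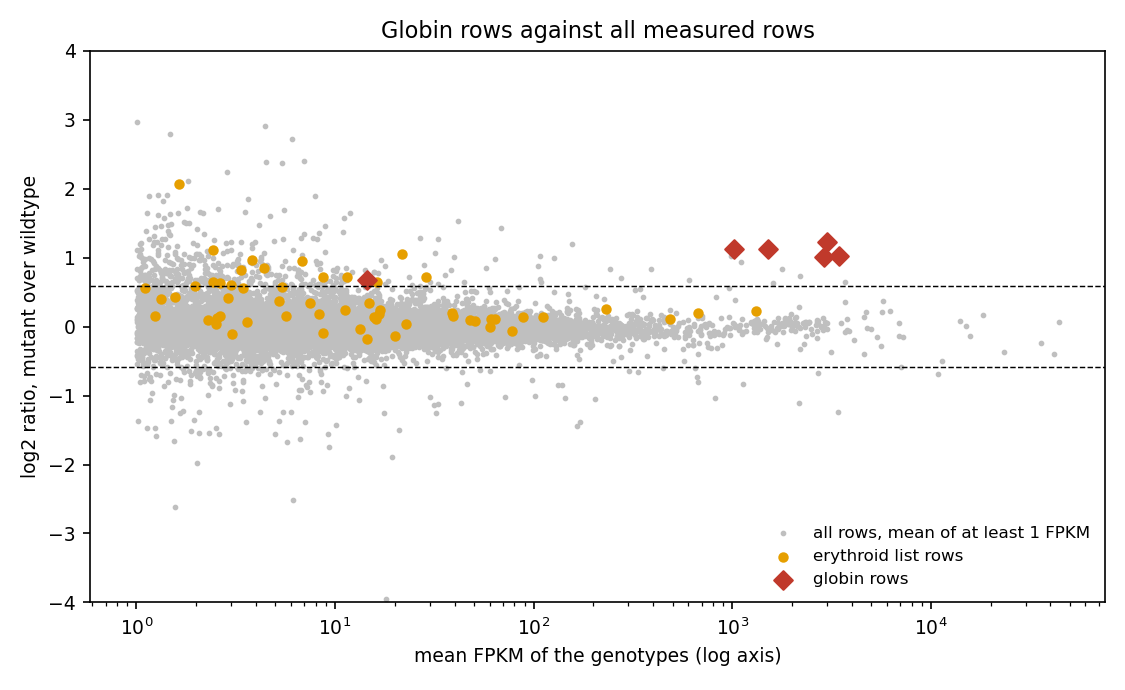
Log2 ratio of mutant over wildtype against the mean FPKM of the genotypes (log axis) for rows with a mean of at least 1 FPKM, with globin rows as red diamonds, erythroid list rows in orange, all rows in grey and dashed lines at 1.5-fold in either direction. The axis stops at a log2 ratio of 4 in either direction, which leaves 10 rows outside the plot, and 5 of the 6 globin rows lie at the upper right with log2 ratios from 1.003 to 1.23.

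The make-up of the globin transcripts differed less between the genotypes than their amount. Ratios within a genotype do not depend on how the libraries were scaled against each other. The summed alpha-like rows held 8056 FPKM in *Smchd1*MommeD1/MommeD1 against 3861 FPKM in *Smchd1*+/+ embryos, and the summed beta-like rows 8054 and 3717 FPKM. Alpha-like over beta-like FPKM was thus 1.0001 in the mutant and 1.04 in the wildtype embryos. The closeness to 1 rests on summing both adult alpha rows. With the more abundant of these rows alone the ratio was 0.827 in mutant and 0.867 in wildtype embryos. With the mean of both rows it was 0.786 and 0.825, so the balance of the chains cannot be read from it. Together the 7 rows held 1.71% of all FPKM in the mutant and 0.781% in the wildtype embryos.

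*Hba-x* made up 57.1% of alpha-like FPKM in mutant and 58.9% in wildtype embryos, 1.76 percentage points less in the mutant. Among the beta-like rows, *Hbb-y* held 52.0% in mutant and 48.1% in wildtype embryos, while *Hbb-bh1* held 47.7% and 51.6%. *Hbb-y* was therefore the more abundant of this pair in the mutant embryos (1.09 times *Hbb-bh1*) and the less abundant in the wildtype embryos (0.932 times). This change of order corresponds to a log2 difference of 0.23 between the ratios of *Hbb-y* and *Hbb-bh1*. The log2 ratio of *Hba-x* lay below that of the adult alpha rows, with differences of -0.10 for the row at *Hba-a1* and -0.11 for the row at *Hba-a2*. Whether shifts of this size exceed the spread between embryos was not tested, since no value per embryo was used.

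The adult beta row of the rule held 0.222% of beta-like FPKM in mutant and 0.299% in wildtype embryos. With *Beta-s* counted as well, the adult beta share was 0.675% and 0.923%. The embryonic rows *Hba-x*, *Hbb-y*, *Hbb-bh1* and *Hbb-bh2* held 78.4% of globin FPKM in the mutant and 78.9% in the wildtype embryos.

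**Figure D3:**
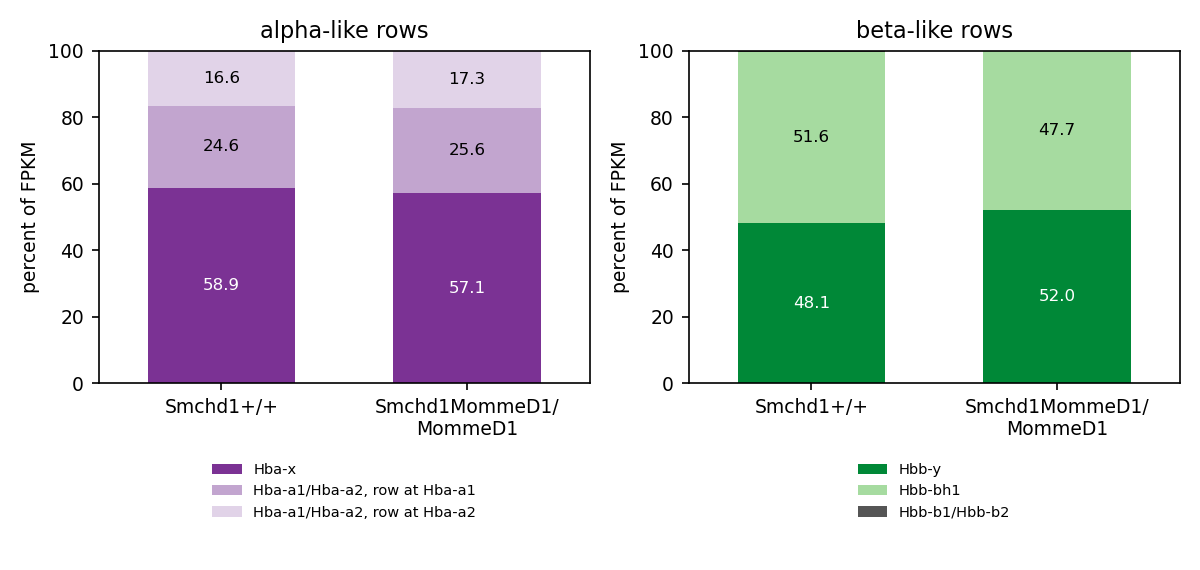
Share of alpha-like FPKM (left) and beta-like FPKM (right) held by each row in *Smchd1*+/+ and *Smchd1*MommeD1/MommeD1 embryos, in percent of the summed rows, from 1 pooled value per genotype. *Hba-x* holds 58.9% and 57.1% of the alpha-like part, *Hbb-y* holds 48.1% and 52.0% of the beta-like part, and the *Hbb-b1*/*Hbb-b2* row is too small to be seen.

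The clusters were also compared with the genes around them. On chromosome 11 the rows within 100 kb of the outermost globin rows include *Nprl3*, whose introns carry the distal enhancers of the alpha-like genes. *Nprl3* was at 7.48 FPKM in mutant against 7.29 FPKM in wildtype embryos, a log2 ratio of 0.04. The rows of *Snrnp25*, *Rhbdf1*, *Mpg*, *Nprl3* and *Sh3pxd2b*, all with a mean of at least 1 FPKM, had log2 ratios from -0.10 to 0.17. *Mpg* and *Nprl3* are listed at 1 shared locus, so their values are uncertain. Between the alpha genes, *Hbq1b*, which encodes a theta-type globin, was at 2.47 and 1.60 FPKM, a log2 ratio of 0.60. The nearby *Hbq1a* was at 0.166 and 0.113 FPKM. The beta-like cluster sits among olfactory receptor genes, and 12 of 13 rows within 100 kb of it were listed at 0 in both genotypes.

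**Figure D4:**
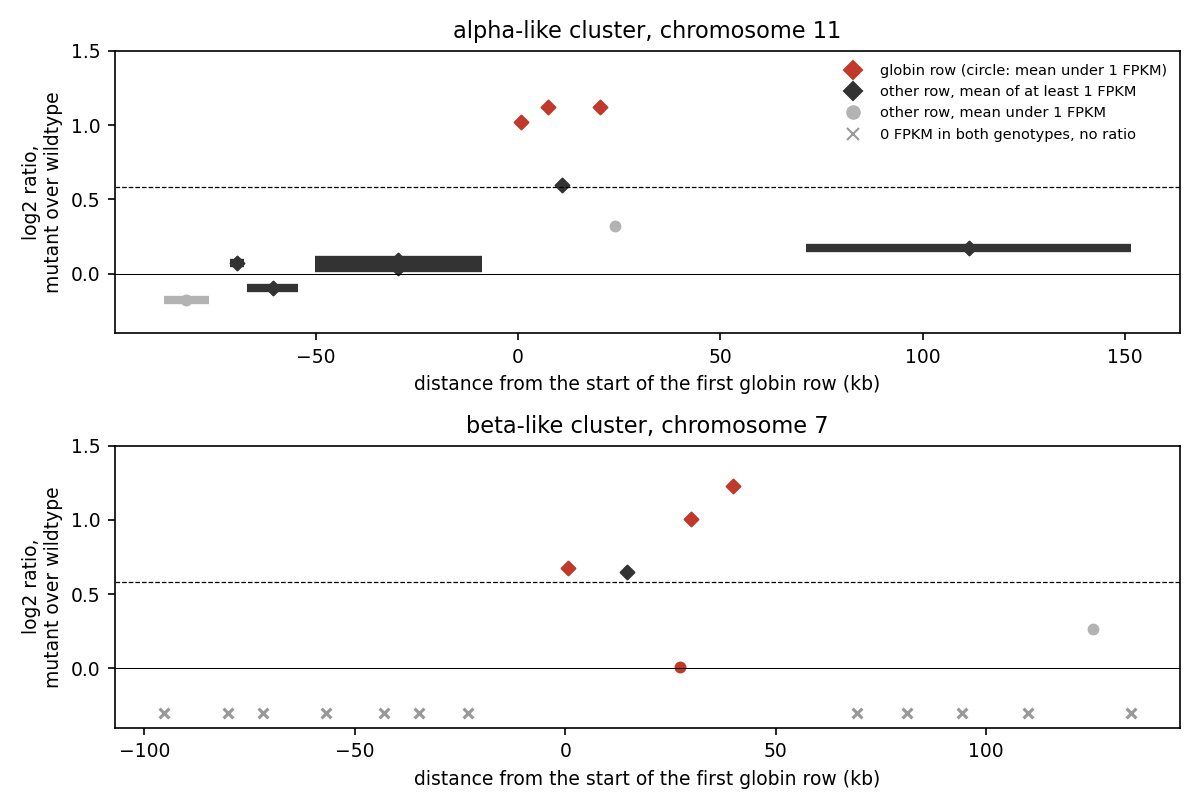
Log2 ratio of mutant over wildtype for each row within 100 kb of the globin rows, against the distance in kb from the first globin row of the cluster, with horizontal bars for the extent of the locus and a dashed line at 1.5-fold. The red diamonds, globin rows with a mean of at least 1 FPKM, lie at log2 ratios from 0.68 to 1.23, the red circle of *Hbb-bh2* lies at 0.0066, the rows around the alpha-like cluster with a mean of at least 1 FPKM lie from -0.10 to 0.17, crosses mark rows at 0 in both genotypes, and the bars of *Mpg* and *Nprl3* overlap.

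Since the members were higher together, the 250 bases before the annotated start of *Hba-x*, *Hba-a1* and *Hbb-y* are given from RefSeq (GRCm38.p6). Those of the adult beta gene *Hbb-bs* are added, whose row was also higher (log2 ratio 0.65) but at a far lower level. All are 5′ to 3′ on the strand of the gene. Capitals mark matches on either strand to AGATAA or TGATAA (the core of GATA factor sites), CCACCC (the core of the box bound by Klf1-type factors), CCAAT, or one of the TATA-type elements TATAAA or TATAAG or CATAAA. *Hba-x* is at chr11:32276350-32276599 on the plus strand, *Hba-a1* at chr11:32283422-32283671 on the plus strand, *Hbb-y* at chr7:103853208-103853457 on the minus strand and *Hbb-bs* at chr7:103827929-103828178 on the minus strand.
Hba-x: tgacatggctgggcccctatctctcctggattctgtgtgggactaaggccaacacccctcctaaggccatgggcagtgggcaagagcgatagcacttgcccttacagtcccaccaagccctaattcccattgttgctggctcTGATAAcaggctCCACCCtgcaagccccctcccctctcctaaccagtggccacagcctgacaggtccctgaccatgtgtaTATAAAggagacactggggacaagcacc
Hba-a1: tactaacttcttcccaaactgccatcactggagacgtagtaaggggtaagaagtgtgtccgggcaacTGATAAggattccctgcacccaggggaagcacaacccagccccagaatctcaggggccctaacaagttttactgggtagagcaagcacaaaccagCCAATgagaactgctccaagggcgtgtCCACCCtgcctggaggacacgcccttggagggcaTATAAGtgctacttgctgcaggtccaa
Hbb-y: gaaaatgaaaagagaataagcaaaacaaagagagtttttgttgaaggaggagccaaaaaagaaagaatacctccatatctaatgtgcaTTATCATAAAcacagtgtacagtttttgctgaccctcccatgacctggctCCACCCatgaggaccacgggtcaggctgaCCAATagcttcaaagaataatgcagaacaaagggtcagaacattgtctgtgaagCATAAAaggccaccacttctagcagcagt
Hbb-bs: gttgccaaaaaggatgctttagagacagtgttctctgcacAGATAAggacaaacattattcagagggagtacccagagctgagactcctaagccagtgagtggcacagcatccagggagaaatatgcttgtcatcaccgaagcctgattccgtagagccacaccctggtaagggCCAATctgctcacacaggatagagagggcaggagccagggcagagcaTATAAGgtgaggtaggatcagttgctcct

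Of the 10 globin symbols looked for in the promoter table, 7 were found, and *Hbb-bh1*, *Hbb-b1* and *Hbb-b2* were not among them. *Hba-x*, *Hba-a1*, *Hba-a2* and *Hbb-y* each held TGATAA and CCACCC in this window. In *Hbb-y* the TGATAA match is on the other strand and overlaps a CATAAA match. Over all 32851 promoters, 16.6% held AGATAA or TGATAA, 28.1% held CCACCC, and 3.45% held both kinds. *Hba-x* had no CCAAT match, whereas 33.8% of all promoters had one. Each of the 4 windows above held a TATA-type match that ends between 22 and 24 bases before the start, and 24.9% of all promoters held such a match anywhere in the window. In *Hbb-bs*, whose row was at 36.8 and 23.4 FPKM, there was an AGATAA match and no CCACCC match, and in *Hbb-bt* the reverse. The *Hbb-bs* window does hold CCACACCC, which a search for CCACCC does not count. A lack of CCACCC therefore does not show that a box for Klf1-type factors is missing. The windows of *Hba-a1* and *Hba-a2* share a run of 247 bases, so they are 1 sequence rather than 2 cases. A match describes letters and was not tested as a site.

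Other genes of the red cell were then set beside the globins. In the lists below, chosen with earlier results of these data known, a row counts when its mean was at least 1 FPKM, and the background is again 3.51% higher and 1.47% lower by at least 1.5-fold. Of 57 such rows in the erythroid lists together, 15 were at least 1.5-fold higher and 0 were at least 1.5-fold lower in the mutant embryos, with a median log2 ratio of 0.20 against 1.07 for the globins. The lists also hold genes that other cells make, such as *Alas1* and *Epb4.1*, so this pooled median does not describe red cell genes alone. The globin median exceeded all but 2 of these rows, *Rhd* (log2 ratio 1.10), which encodes a blood group protein of the membrane, and *Bcl11a*. With the adult alpha rows counted once (median 1.02), *Alas2* (1.05) lay above the globin median as well.

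Heme is the iron-carrying group of hemoglobin. Of 13 rows for heme synthesis and transport, 1 was at least 1.5-fold higher and the median log2 ratio was 0.14. The exception was *Alas2*, the red cell enzyme for the first step of the pathway, at 29.3 FPKM in mutant against 14.1 FPKM in wildtype embryos, a log2 ratio of 1.05 within the range of the globins. *Alas1*, the form used in other tissues, was at 8.38 and 8.98 FPKM, a log2 ratio of -0.10. *Ppox*, a late enzyme of the pathway, had a log2 ratio of 0.35. *Tmem14c*, a mitochondrial porphyrin transporter, was at 117 and 105.9 FPKM, a log2 ratio of 0.14.

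Of 17 rows for erythroid regulators, 3 were at least 1.5-fold higher, and the median log2 ratio was 0.24. *Gata1*, the central transcription factor of red cells, was at 5.10 FPKM in mutant against 2.56 FPKM in wildtype embryos, a log2 ratio of 0.97. *Klf1*, which activates globin genes, was at 6.47 and 4.31 FPKM, a log2 ratio of 0.57 and just under 1.5-fold. *Nfe2*, which binds the enhancers of the beta-like genes, had a log2 ratio of 0.60. *E2f2*, a cell cycle factor of red cell precursors, had a log2 ratio of 0.37. *Epor*, the erythropoietin receptor, was at 3.31 and 2.46 FPKM, a log2 ratio of 0.41, and *Myb*, a factor of definitive blood precursors, was at 1.54 and 1.14 FPKM, a log2 ratio of 0.40. *Bcl11a*, a repressor of embryonic globin genes in later red cells that is also expressed in neurons, was at 2.71 and 0.571 FPKM, a log2 ratio of 2.06. *Sox6*, which acts with it, was at 3.69 and 3.50 FPKM, a log2 ratio of 0.07. *Lmo2*, a partner of Gata1 that endothelial cells also use, was at 13.5 and 15.4 FPKM, a log2 ratio of -0.18.

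The red cell membrane list came closest to the globins among the erythroid lists. Of its 14 rows, 9 were at least 1.5-fold higher in the mutant embryos, with a median log2 ratio of 0.64. *Slc4a1*, the anion exchanger of the membrane, was at 35.6 FPKM in mutant against 21.5 FPKM in wildtype embryos, a log2 ratio of 0.73, and *Gypc*, which encodes a glycophorin, had a log2 ratio of 0.72. *Epb4.1*, a skeletal protein that many cells make, was at 51.9 and 49.1 FPKM, a log2 ratio of 0.08. *Sptb* was not analysed here, and neither was *Ahsp*, the chaperone of free alpha chains.

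Iron uptake and storage genes differed less than the globins, with 0 of 6 rows at least 1.5-fold apart in either direction, against 4.98% of all rows, and a median log2 ratio of 0.11. The ferritin chains *Fth1* (505 and 470 FPKM) and *Ftl1* (1416 and 1212 FPKM) had log2 ratios of 0.10 and 0.22. *Slc25a37*, the mitochondrial iron importer, had a log2 ratio of 0.12 and *Slc11a2*, which moves iron out of endosomes, one of -0.04. Of 7 red cell enzyme rows, 2 were at least 1.5-fold higher, *Pklr*, a pyruvate kinase (9.04 and 4.65 FPKM, a log2 ratio of 0.95), and *Blvrb*, a biliverdin reductase (19.9 and 12.6 FPKM, 0.65). The antioxidant enzymes *Prdx2* and *Gpx1* had log2 ratios of 0.20 and 0.26, and *Car2*, a carbonic anhydrase, one of 0.16. Of 5 other globin-fold genes found, *Hbq1b* and *Cygb* had a mean of at least 1 FPKM, and both were at least 1.5-fold higher, with a median log2 ratio of 0.69. Both levels are near that limit. With 1 FPKM added to each value, 0 of these rows were 1.5-fold higher and the median was 0.43. *Cygb* was at 1.49 and 0.829 FPKM, a log2 ratio of 0.77, whereas *Mb* (0.468 and 0.553 FPKM) and *Ngb* (0.059 and 0.020 FPKM) were low.

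**Figure D5:**
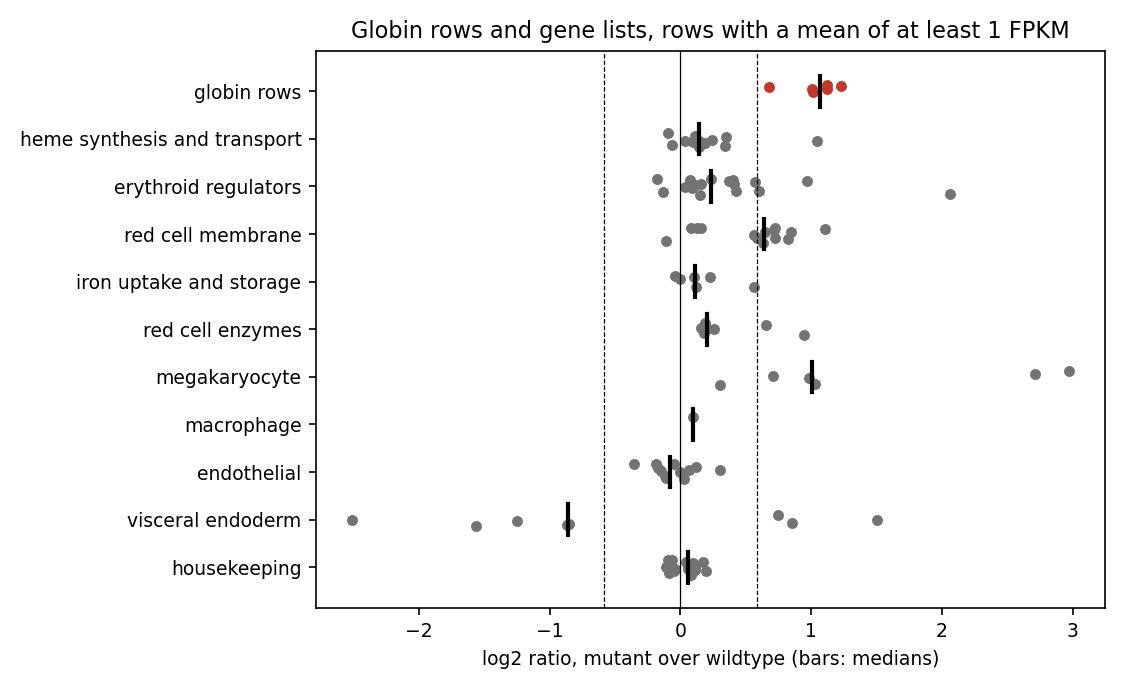
Log2 ratio of mutant over wildtype for each row with a mean of at least 1 FPKM in the globin set and the 10 lists with names on the left, with vertical bars for medians and dashed lines at 1.5-fold. The globin rows (red, median 1.07) lie to the right of the heme synthesis (0.14), erythroid regulator (0.24), red cell membrane (0.64), iron (0.11), red cell enzyme (0.20) and housekeeping (0.05) medians.

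Markers of other cell types differed between the genotypes to different degrees, and their part in the globin difference was not tested. Of 6 megakaryocyte rows, which mark the platelet lineage, 5 were at least 1.5-fold higher and the median log2 ratio was 1.01. Their summed level was 32.7 FPKM in mutant against 13.8 FPKM in wildtype embryos. *Pf4*, a platelet chemokine, was at 10.6 and 1.53 FPKM, a log2 ratio of 2.71. *Gp1bb* is listed in a row with *Sept5*, which was at 13.4 and 8.14 FPKM, a log2 ratio of 0.71. That shared row is the largest part of the sum in both genotypes, and how much of it is *Gp1bb* is unknown. With low rows included, all 12 megakaryocyte rows found were higher in the mutant embryos, 11 of them by at least 1.5-fold. Without a filter on low values, 5.13% of all rows of the table were that much higher and 2.43% that much lower. These shares include 4655 rows at 0 in both genotypes, which cannot differ, so they are lower than shares over rows with any signal.

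Macrophage markers were low in both genotypes and were also higher in the mutant embryos. Of 13 rows found, *Cd68* alone reached a mean of 1 FPKM (1.12 and 1.04 FPKM). All 13 were higher in the mutant embryos, 9 of them by at least 1.5-fold, with a median log2 ratio of 1.003 and summed levels of 5.35 FPKM in mutant against 1.93 FPKM in wildtype embryos. The immune receptor adaptor genes *Fcer1g* and *Tyrobp* were at 0.863 and 0.126 FPKM and at 0.697 and 0.122 FPKM. *Csf1r*, the receptor that macrophages need to survive, was at 0.385 and 0.145 FPKM, and *Ptprc*, a marker of white blood cells, at 0.096 and 0 FPKM.

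Endothelial rows, which mark the vessel wall, lay near equality, with 0 of 12 at least 1.5-fold apart and a median log2 ratio of -0.08. Their summed level was 125 FPKM in mutant against 131 FPKM in wildtype embryos. *Pecam1* and *Esam*, cell contact proteins of vessels, had log2 ratios of 0.31 and 0.12, and *Tek*, the angiopoietin receptor, one of -0.36. Visceral endoderm genes mark the outer layer of the yolk sac, whose blood islands make the first red cells. Of 8 such rows, 3 were at least 1.5-fold higher and 5 at least 1.5-fold lower, with a median log2 ratio of -0.86 and summed levels of 35.2 and 46.9 FPKM. Of all 14 rows found, low ones included, 3 were at least 1.5-fold higher and 11 at least 1.5-fold lower. *Afp*, the fetal serum protein, was at 14.7 and 8.10 FPKM, a log2 ratio of 0.85. *Rbp4*, a retinol carrier, was at 6.46 and 11.8 FPKM, a log2 ratio of -0.85, and *Spink3*, a protease inhibitor, was at 1.76 and 10.5 FPKM, a log2 ratio of -2.51.

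Housekeeping rows stayed close to equal, with 0 of 15 at least 1.5-fold apart and a median log2 ratio of 0.05. *Gusb*, a lysosomal enzyme, had a log2 ratio of -0.11 and *B2m*, a chain of MHC class I molecules, one of 0.17. The abundant members *Eef1a1*, *Ppia*, *Gapdh*, *Rpl13a*, *Actb*, *Ywhaz*, *Ppib* and *Polr2a* all had log2 ratios between those of *Gusb* and *B2m*. Their levels show what the globin values amount to. *Hba-x* in the mutant embryos (4602 FPKM) was above *Gapdh* (3602 FPKM) and below *Eef1a1* (7042 FPKM), while in the wildtype embryos it was at 2274 FPKM against 3462 and 6779 FPKM.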

How the data were processed

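RNA of E9.5 embryos was sequenced by the authors as single-end 100 bp reads from nondirectional libraries, mapped to MM10 with TopHat 2 and compared with Cufflinks/Cuffdiff v 2.0.2. The submitters' processing notes name TopHat2 2.0.6 and Bowtie2 2.0.2. The deposited values are FPKM computed by the authors, 1 per genotype and row. The table's columns of fold change, test statistic, p-value, q-value and significance are the authors' own comparison and were not used. The columns, headed M and P, were assigned to genotypes through the paper's own copy of the table.

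Log2 ratios were taken with 0.1 FPKM added, over rows with a mean of at least 1 FPKM. A locus start was counted from 1. With 1 pooled value per genotype, no test, error or interval was computed, and the depth is unknown. Members, the 11 gene lists and limits were chosen with earlier results of these data known. Named genes are the globin rows, *Smchd1*, known globin partners and regulators, and in each list the 2 highest and the lowest ratio at 5 FPKM or more and members at 100 FPKM or more. *Nfe2*, *Rhd*, the neighbours of the clusters and markers named for a low level or a single passing row fall outside that rule and were named after their values were seen. A gene that this rule names among the housekeeping genes is not reported here. Coding sequences were aligned with biopython 1.88 in Python 3.11.15. Alternatives were other pseudocounts, scalings, filters, folds and ways to count the alpha copies.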

Additional observations from a re-analysis of the deposited data

How the results depend on the processing

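No paired analysis was possible because 1 pooled value per genotype was used. Leaving out each embryo was not possible for the same reason. Without a spread between embryos, a value was taken as moved when it changed by at least 0.1 on the log2 scale, by 1 percentage point of a share within the globins, or by over 1.5 times for counts, ratios and the share of all FPKM. Across 6 other pseudocounts and scalings, the median globin log2 ratio lay between 1.03 and 1.13, *Hba-x* between 0.98 and 1.07, *Hbb-bh1* between 0.96 and 1.06, *Hbb-y* between 1.19 and 1.29 and the *Hbb-b1*/*Hbb-b2* row between 0.64 and 0.74. *Hba-x* and *Hbb-bh1* thus lie on either side of 2-fold depending on the scaling. Of the alternative values for the main results, 53 had not moved, 9 had, and 0 of the called ones changed sign. The scalings multiplied the mutant values by 0.97 to 1.04, so a ratio past 1.5-fold could not change sign. The 53 also include counts of globin and erythroid rows lower in the mutant embryos, which were 0 in every setting. The tally therefore says little about how firm the results are. For the other results, 250 had not moved and 42 had. The red cell membrane rows that were higher became 3 from 5 FPKM upwards and 1 at 2-fold, against 9. The megakaryocyte median log2 ratio became 0.69 with 1 FPKM added and 1.71 from 5 FPKM upwards, against 1.01. The value of 1.71 rests on *Pf4* (2.71) and the row shared by *Gp1bb* and *Sept5* (0.71) alone. The count of erythroid rows that were higher became 24 at a fold limit below 1.5, 3 at 2-fold and 6 with a mean of at least 5 FPKM, against 15. Over all rows, the counts at least that much higher and lower became 1102 and 621 at the lower fold limit, 122 and 64 at 2-fold, 1242 and 589 with no filter, 134 and 80 from 5 FPKM upwards, and 253 and 112 with 1 FPKM added, against 438 and 183. Each count given from 5 FPKM upwards is of the fewer rows that reach that mean, and its share of them was not computed. Over rows with a symbol and at least 200 bp, the globin share was 2.71% in mutant and 1.29% in wildtype embryos. With the more abundant adult alpha row alone, *Hba-x* was 69.1% of alpha-like FPKM in mutant and 70.6% in wildtype embryos, and with the mean of both rows 72.7% and 74.1%. Counting *Beta-s* was chosen after seeing the data.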

Other observations

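The rows with a mean of at least 100 FPKM whose ratio was nearest to the median globin ratio of 1.07 were looked up, since they are the rows whose pattern over both genotypes was most like that of the globins. That median counts both adult alpha rows. Of the 5 nearest, 3 had no symbol and were under 200 bp long. The named ones were *Ndn*, an imprinted gene (169 FPKM in mutant against 84.3 FPKM in wildtype embryos, a log2 ratio of 0.9997), and *Ckb*, the brain-type creatine kinase (217 and 94.8 FPKM, 1.20). With only 2 values per row, likeness means an equal ratio and nothing more.

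Among 829 rows with a symbol, a locus of at least 200 bp and a mean of at least 100 FPKM, 12 were at least 1.5-fold higher in the mutant embryos, and 5 of these were globin rows, with both near-identical adult alpha rows counted. The others included *Lars2* (log2 ratio 0.83), *Tubb2a*/*Tubb2b* (0.70) and *Cotl1* (0.69), besides *Ckb* and *Ndn*. The remaining rows of the 12, *Mir3096* and *Snora30*, were listed at 0 in the wildtype embryos.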
